A study of Homo sapiens with 8 samples.

Results

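The baseline transcriptome of BCPAP cells was described from the 4 control cultures of a knockdown series of 8 arrays. BCPAP is an established cell line from a human papillary thyroid carcinoma. The study states that both *BRAF* and *p53* carry somatic mutations in this line. The control cells were transfected with a pool of non-targeting siRNAs (si*NS*) by lipofection, and RNA was taken 72 h later and hybridized to Clariom D Human arrays, 1 array per culture. The cultures are called 1 to 4 after their replicate numbers. The labels describe them as experiments made at separate time points, so a difference between cultures cannot be told apart from a difference between experiments. Titles and source names give the non-targeting pool, while 1 field of the control labels names an siRNA against another gene. The other group of the series, cells with siRNA against *EPB41L4A*, was not compared here. Both groups received an siRNA, so the values describe transfected cells of 1 line. Each gene was represented by 1 probe set, that of the highest mean among those annotated with exactly 1 gene symbol, which gave 33616 genes. No contrast was tested, and the results are levels and their spread.

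Thyroid follicular cells are epithelial cells that take up iodide and couple it to thyroglobulin under the control of thyroid-stimulating hormone. The transcription factors PAX8, NKX2-1, FOXE1 and HHEX together specify this cell type and drive its specialized genes. Papillary carcinomas arise from it, commonly through activation of the MAPK cascade, and cultured lines from them often lose the specialized functions. Among the programs that can differ between cultures of 1 line are the interferon response, in which the factor ISGF3 binds a DNA element in antiviral genes, the NF-kB response of cytokine genes, and the cell cycle, whose S phase genes are bound by E2F factors.

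Short stretches of promoters show the letters searched for in 4 of the programs described below. They were chosen because they hold a match, and many members hold none. They come from RefSeq (GRCh38.p14), run 5′ to 3′ on the strand of the gene and end at or before its annotated start. Capitals mark a match to the interferon element, searched as GAAANNGAA, in the first 4 stretches. They mark an NF-kB site, searched as GGGANTTTC or GGGGNTTTC, in the next 3, an E2F site, searched as TTTCCCGC or TTTGGCGC, in the next 2, and a TATA box, searched as TATAAA, in the last 2. Both strands were searched. All but the TATA box hold TTTC or its complement GAAA, or can, so matches of different motifs may overlap.
IFIT1: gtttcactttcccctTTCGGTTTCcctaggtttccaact
ISG15: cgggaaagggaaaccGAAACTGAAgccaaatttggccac
IFI6: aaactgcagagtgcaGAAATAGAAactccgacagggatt
IFIH1: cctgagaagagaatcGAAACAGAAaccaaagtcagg
IL6: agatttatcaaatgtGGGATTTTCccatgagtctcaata
CXCL2: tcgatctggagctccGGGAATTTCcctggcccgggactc
CCL20: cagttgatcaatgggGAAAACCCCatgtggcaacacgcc
DTL: agagcgtgacgtcagTTTGGCGC
PCNA: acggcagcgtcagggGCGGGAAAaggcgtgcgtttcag
H3C1: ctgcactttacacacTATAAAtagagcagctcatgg
H3C2: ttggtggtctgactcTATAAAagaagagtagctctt
The promoter windows of the first 4 genes hold 2, 3, 3 and 4 matches to the interferon element, and 1 of each is marked. Lower-case letters can hold further matches, as in *IFIT1* and *ISG15*. The marked matches begin 102, 101, 93 and 21 bases before the start of *IFIT1*, *ISG15*, *IFI6* and *IFIH1*. They begin 73, 78 and 78 bases before that of *IL6*, *CXCL2* and *CCL20*, 8 and 59 before that of *DTL* and *PCNA*, and 29 and 32 before that of *H3C1* and *H3C2*. The coordinates are chr10:89392506-89392544 for *IFIT1*, chr1:1013381-1013419 for *ISG15*, chr1:27672262-27672300 for *IFI6*, chr2:162318685-162318720 for *IFIH1*, chr7:22727112-22727150 for *IL6*, chr4:74099250-74099288 for *CXCL2*, chr2:227813749-227813787 for *CCL20*, chr1:212035725-212035747 for *DTL*, chr20:5126659-5126696 for *PCNA*, chr6:26020407-26020442 for *H3C1* and chr6:26032111-26032146 for *H3C2*.

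A gene was called detected when its value lay above the 95th percentile of the 612 negative control probe sets in each of the 4 arrays. These thresholds were log2 values of 6.20, 6.31, 6.04 and 6.43 in cultures 1 to 4, the order of all values below. By this rule 9728 of 33616 genes (28.9%) were detected, 2036 lay above the threshold in 1 to 3 cultures and 21852 in none. Of the 17579 protein-coding genes, 7918 (45%) were detected. Counts of detected members in lists of protein-coding genes below are to be read beside this 45%. The share was 5.21% of 3051 long non-coding RNAs and 4.83% of 1470 microRNA genes, while 65 of 220 small nucleolar RNAs and 30 of 46 small nuclear RNAs passed. None of 169 immunoglobulin and T cell receptor V segments was detected, 3 of 38 J segments were, and 1 of 400 olfactory receptor genes was, *OR9K2*. Genes of lymphocytes and of the olfactory epithelium thus passed rarely or not at all.

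**Figure D1:**
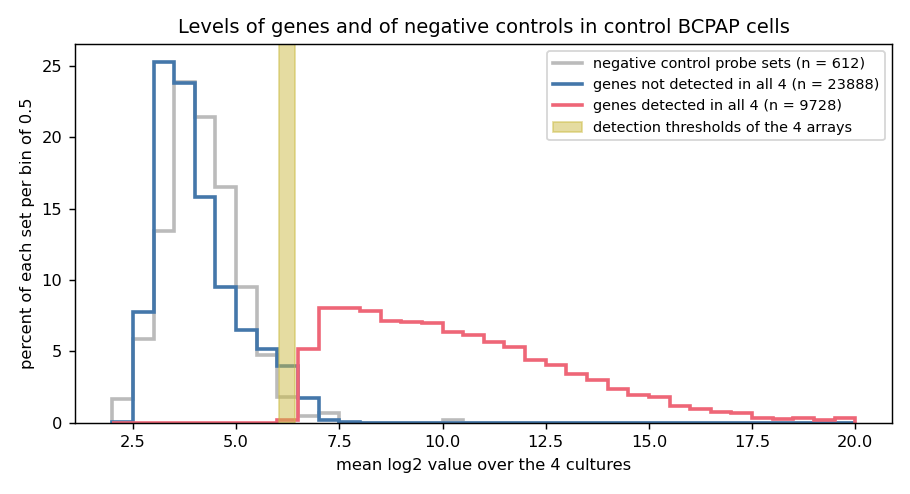
Distribution of the mean log2 value over the 4 control cultures (x axis) as the percent of each set per bin of 0.5 (y axis), for the 612 negative control probe sets, the 23888 genes not detected in all cultures and the 9728 detected genes. The negative controls and the genes that were not detected peak below 5, and the detected genes spread from the thresholds (yellow band, 6.04 to 6.43) up to nearly 20.

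Probe sets differ in how strongly they bind, so the log2 level of 1 gene was not set against that of another. What can be compared is a gene between cultures. Over detected genes the range, the highest minus the lowest of the 4 log2 values, had a median of 0.79 and quartiles of 0.53 and 1.16. In 472 of the 9728 detected genes (4.85%) the range was 2 or more, a 4-fold difference in the deposited value, and in 2198 (22.6%) it was 0.5 or less. *PBK* lay just inside the limit of 2 and *FAM72A* just outside it, at 2.0007 and 1.9997. The median range was 0.81 in the 2080 detected genes with a mean under 8 and 0.29 in the 114 with a mean of 18 or more. Values above 16, the log2 of the largest 16-bit signal, occur, and the highest value of each array was 19.79 to 19.91, so differences between cultures may be compressed there.

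All 4 transcription factors of thyroid follicular cells were detected in every culture. *PAX8*, the paired box factor of thyroid and kidney, lay at 12.45, 13.46, 13.64 and 12.86. *NKX2-1*, the homeobox factor of thyroid and lung, lay at 9.33, 8.84, 9.67 and 9.10. For *FOXE1*, the thyroid forkhead factor, the values were 7.18, 6.95, 7.46 and 6.61. *PAX8* stood several log2 units above the thresholds, and *FOXE1* only just above them, most narrowly in culture 4. *HHEX*, a homeobox factor of the developing thyroid, was at 8.51, 6.53, 6.76 and 7.03, with culture 1 above the other 3 by 1.48. At the 99th percentile of the negative controls, 7.07 to 7.80, *PAX8* and *NKX2-1* were still detected in every culture, and *FOXE1* and *HHEX* were not.

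Of 14 measured genes of thyroid differentiation, 1 was detected (7.14%, against 28.9% of all genes and 45% of protein-coding genes). It was *GLIS3*, a zinc finger factor needed for thyroid hormone synthesis, at 9.60, 9.42, 9.29 and 8.42. *TG*, which encodes thyroglobulin, was at 3.11, 3.37, 3.09 and 3.08, and *TSHR*, the receptor for thyroid-stimulating hormone, at 3.60, 3.12, 3.62 and 3.16. *SLC5A5*, the sodium iodide symporter, was at 3.58, 3.77, 3.19 and 3.25. The values of these last 3 genes were all below the mean of the negative controls, which was 4.05 to 4.29. *CDH16*, a cadherin of kidney and thyroid, passed the threshold in culture 3 alone, with 5.13, 5.05, 6.29 and 3.68. Set against its markers, the thyroid label of the line was met by *PAX8* and *NKX2-1*, by *FOXE1* and *HHEX* at the lower threshold alone, and not by the genes of hormone synthesis.

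Epithelial and mesenchymal genes were present together. Of 23 measured epithelial genes 9 were detected (39.1%), and of 15 mesenchymal genes 10 (66.7%). The share was 28.9% of all genes and 45% of protein-coding genes, so the epithelial share lay below the latter. The simple epithelial keratins *KRT7*, *KRT8* and *KRT18* had ranges of 0.50, 0.73 and 0.68, against a median of 0.72 over detected genes with a mean between 12 and 16. *KRT7* lay at 15.42, 15.19, 15.35 and 15.69, *KRT8* at 15.16, 14.89, 15.09 and 15.62 and *KRT18* at 13.24, 13.27, 13.42 and 13.92. *EPCAM*, an epithelial adhesion molecule, varied more, at 7.72, 7.13, 8.97 and 8.81, higher in cultures 3 and 4 than in 1 and 2. Tight junction genes were also detected. *CLDN1* was at 17.37, 17.56, 17.37 and 16.89, *CLDN4* at 14.27, 14.54, 14.34 and 14.95, *TJP1* at 14.11, 14.53, 14.59 and 15.001 and *OCLN* at 7.88, 7.63, 7.50 and 6.78.

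*CDH1*, the epithelial cadherin, was below the threshold in every culture (3.73, 3.68, 3.20 and 3.33). So were *ESRP1*, an epithelial splicing factor, at 3.37, 3.72, 3.53 and 3.18, and *GRHL2*, an epithelial transcription factor, at 4.20, 3.93, 4.51 and 4.52. *KRT19* was below the thresholds at 5.75, 5.88, 5.90 and 5.64, and *CLDN7* passed in cultures 1 and 3 only, with 6.93, 6.15, 6.95 and 5.90. Other cadherins were above the thresholds. *CDH2*, the neural cadherin, was detected at 12.34, 12.12, 12.17 and 12.61, *CDH11* at 12.65, 12.85, 12.71 and 12.55 and *CDH6*, a cadherin of kidney and of thyroid tumours, at 14.01, 14.03, 14.41 and 14.91. *CDH3*, the placental cadherin, was at 8.28, 8.04, 7.98 and 8.05, but its mean fell to 5.73 when all of its probe sets were averaged.

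Of the 10 detected mesenchymal genes, 6 had a range of 0.5 or less (22.6% of all detected genes had). Among the 6 were *VIM* and *FN1*, with means above 18, where differences may be compressed. At a mean of 18 or more, 82 of 114 detected genes had such a range. *VIM*, the intermediate filament vimentin, lay at 18.35, 18.15, 18.52 and 18.51, and *FN1*, fibronectin, at 18.59, 18.33, 18.28 and 18.18. *TGFBI*, a matrix protein induced by TGF-beta, was at 18.89, 18.18, 18.44 and 18.32, and *SPARC*, another matrix protein, at 15.56, 15.21, 15.99 and 15.77. *S100A4*, a calcium-binding protein of motile cells, was at 10.63, 10.36, 10.36 and 10.46. Factors that repress epithelial genes were less even. *ZEB1* was at 12.79, 12.79, 13.37 and 12.56, and *TWIST1* was not detected at 4.37, 3.81, 4.62 and 4.46. *SNAI2* stood at 10.29, 10.95, 11.54 and 13.61, so culture 4 exceeded the next by 2.08 and was 3.33 above culture 1. *SNAI1* passed the threshold in cultures 3 and 4 only, with 4.99, 5.86, 6.84 and 7.44.

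**Figure D2:**
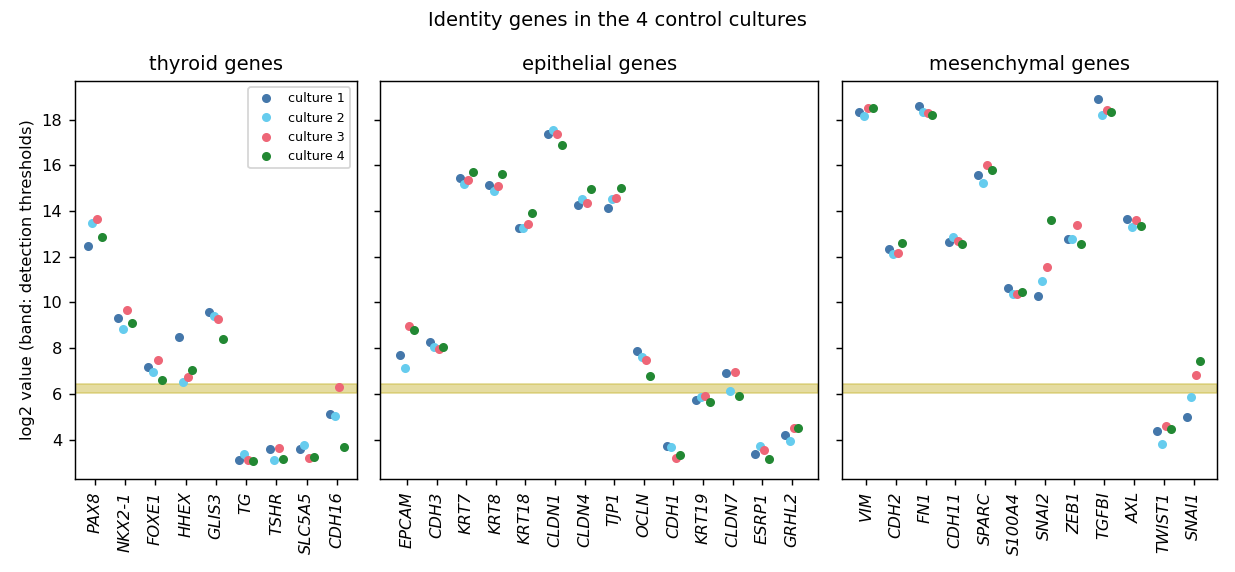
The log2 value in each of the 4 control cultures (points, y axis) of genes of thyroid, epithelial and mesenchymal identity (x axis), with the detection thresholds as a band. *PAX8*, the keratins *KRT7*, *KRT8* and *KRT18*, and *VIM* and *FN1* lie far above the band, *TG*, *TSHR*, *SLC5A5* and *CDH1* below it, and *SNAI2* is highest in culture 4.

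Of 21 genes used as tissue markers of papillary carcinoma, 16 were detected (76.2%, against 45% of protein-coding genes). *LGALS3*, galectin 3, was at 14.10, 14.01, 14.45 and 14.33, and *MET*, the hepatocyte growth factor receptor, at 14.91, 14.73, 14.76 and 14.28. *TIMP1*, an inhibitor of matrix proteases, was at 16.96, 16.73, 17.25 and 16.18 and *PLAU*, urokinase, at 15.41, 15.08, 15.80 and 14.92. *IGF2BP3*, an oncofetal RNA-binding protein, was at 13.43, 13.23, 13.23 and 13.50, and *HMGA2*, a fetal chromatin protein, at 9.78, 8.85, 9.04 and 9.75. The 4 cultures of each of these genes lay within 1 log2 unit, apart from *TIMP1*, which was lower in culture 4. *DPP4*, a surface peptidase, was at 12.86, 12.63, 13.39 and 11.66 and *CD44*, the hyaluronan receptor, at 15.87, 15.49, 15.28 and 14.77, and both were lowest in culture 4. *LCN2*, a secreted siderophore-binding protein, was at 11.66, 10.27, 11.35 and 7.69, the only marker of this group with a range over 2. *CITED1*, a co-activator, was not detected at 3.39, 3.69, 3.55 and 3.56.

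Markers of other cell types were at background for the most part. None of 17 haematopoietic, 12 endothelial or 9 erythroid genes was detected in all 4 cultures, with 1, 1 and 0 genes above the threshold in some. The mean over the measured haematopoietic genes was 4.32, 4.32, 4.28 and 4.36 in cultures 1 to 4, against 4.24, 4.25, 4.05 and 4.29 for the negative controls. Single genes of other types were detected. They were *CPS1*, a urea cycle enzyme of liver, at 8.20, 8.21, 8.35 and 7.70, *SYT1*, a synaptic vesicle protein, at 13.34, 13.13, 13.93 and 13.34, and *ACTA1*, skeletal muscle actin, at 10.10, 9.86, 10.21 and 10.42. Of 11 fibroblast genes 3 were detected in all cultures and 4 in some: *COL1A1* was at 9.84, 8.92, 9.20 and 8.91, *LUM* at 8.13, 6.58, 8.54 and 7.72 and *THY1* at 8.18, 7.99, 8.01 and 8.50. *SCG2*, a granin of neuroendocrine cells, was at 7.45, 7.34, 10.40 and 6.63, so culture 3 exceeded the others by 2.95, while the other 8 measured genes of parafollicular C cells were not detected.

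All 7 genes of the band 4.1 family, membrane-cytoskeleton linkers with a FERM domain, were detected. *EPB41L4A*, the gene that the series was made to study, lay at 9.65, 9.22, 9.81 and 9.44, a range of 0.59 that is below the median over detected genes. *EPB41L4B* was at 9.15, 9.37, 9.39 and 9.73, *EPB41L5* at 8.98, 8.74, 8.56 and 8.34 and *EPB41L2* at 12.99, 12.71, 12.88 and 12.99. *EPB41* was at 9.82, 10.04, 10.29 and 9.64 and *EPB41L1* at 8.42, 8.08, 8.38 and 7.85. None of these 6 had a range over 0.66. *EPB41L3* did, at 6.44, 7.94, 9.28 and 7.80, with culture 1 lowest by 1.35 and culture 3 highest by 1.34. *EPB41L4A-AS1*, which is transcribed from the opposite strand there, was at 12.91, 12.83, 13.11 and 12.51.

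Of 26 measured genes that the study names, 23 were detected (88.5%, against 45% of protein-coding genes). The study's own array analysis of this series removed low-expression genes first. A high share thus follows in part from how these genes were chosen and is no result about them. *LIPH*, a lipase that makes lysophosphatidic acid, was 1 of the 10 steadiest genes under a mean of 16, at 12.88, 12.92, 12.88 and 12.88. *S1PR1*, a receptor for sphingosine 1-phosphate, was at 11.46, 11.21, 11.17 and 11.45. *CTNNB1*, beta-catenin, was at 13.19, 13.19, 13.68 and 13.004 and *NRG1*, a ligand of the ERBB receptors, at 14.78, 14.06, 14.53 and 13.92. Between cultures these 4 differed by less than 1. Others had a culture apart. *LPCAT2*, which remodels phospholipids, was at 11.78, 11.93, 11.62 and 13.92, and *MAPKAPK3*, a kinase downstream of p38, at 12.29, 11.99, 12.13 and 13.87. *FILIP1L* was at 10.51, 10.71, 11.34 and 12.42, which like the former pair was highest in culture 4 by more than 1. *STC1*, a secreted glycoprotein, was highest in culture 3, with 15.16, 15.65, 16.90 and 15.60. *IGFBP6*, an inhibitor of IGF2, was lowest in culture 4, with 10.76, 10.44, 10.57 and 8.84, as was *MAP2*, a microtubule-associated protein, with 10.73, 10.21, 10.57 and 9.28. *DNMT3B*, a DNA methyltransferase, was at 11.36, 10.36, 10.07 and 11.19. *TNFSF15*, a ligand of the TNF family, passed in cultures 3 and 4 only, with 5.70, 5.50, 6.19 and 7.74, and *RPS6KA5*, a kinase of the MAPK pathway, missed the threshold in culture 3, with 6.26, 6.71, 5.61 and 6.48.

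Genes induced by MAPK signalling were detected in 16 of 20 cases (80%, against 45% of protein-coding genes). *PHLDA1* was at 15.29, 15.29, 15.51 and 15.25, *IER3* at 16.52, 16.57, 16.82 and 16.77 and *ETV5*, an ETS factor, at 10.35, 9.99, 10.21 and 10.35, and none of these differed by more than 0.36 between cultures. *DUSP5*, a phosphatase that inactivates ERK, was at 15.34, 14.58, 15.21 and 13.84 and lowest in culture 4. *CCND1*, cyclin D1, was at 14.90, 14.84, 14.56 and 16.05, and *EGR1*, an immediate early factor, at 7.93, 8.19, 7.39 and 9.44. Both were highest in culture 4, by 1.14 and 1.25.

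Receptor tyrosine kinases were detected in 14 of 51 cases (27.5%), against 45% of protein-coding genes. Culture differences were below 0.5 in *AXL*, at 13.64, 13.31, 13.60 and 13.34, *EPHA2*, at 10.14, 9.83, 9.85 and 10.24, and *RYK*, at 12.26, 12.21, 12.14 and 12.47. *ROR1*, a WNT5A receptor, was at 8.73, 8.43, 9.28 and 10.93, and *IGF1R*, the IGF1 receptor, at 9.16, 9.53, 8.52 and 10.84. *ROS1*, an orphan kinase rearranged in some carcinomas, was at 8.84, 8.93, 8.39 and 6.90. Culture 4 was the one apart in all 3, high for *ROR1* and *IGF1R* and low for *ROS1*. *EGFR* was at 11.02, 10.61, 10.63 and 9.48, also lowest in culture 4.

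Of 31 growth factor ligands 12 were detected (38.7%, against 45% of protein-coding genes). *PDGFC* was at 8.50, 8.52, 8.61 and 8.49, *BDNF* at 8.38, 8.10, 8.09 and 8.26 and *VEGFC*, the lymphatic growth factor, at 15.11, 14.75, 15.12 and 14.85. *HBEGF*, an EGFR ligand, was at 13.74, 12.47, 12.06 and 13.33, higher in cultures 1 and 4. *FGF2* was at 13.06, 12.24, 12.61 and 11.27 and *CSF1*, the macrophage growth factor, at 15.44, 14.33, 15.04 and 12.65, both lowest in culture 4. In the beta-catenin machinery, 25 of 46 genes were detected (54.3%, against 45% of protein-coding genes). The co-receptor *LRP5* was at 6.36, 6.40, 6.58 and 6.45 and the nuclear cofactor *PYGO2* at 8.22, 8.40, 8.51 and 8.51. The WNT receptors *FZD7* and *FZD4* were at 8.68, 8.27, 9.03 and 7.65 and at 8.19, 7.83, 7.09 and 6.88. *DKK1*, a secreted WNT inhibitor, was at 9.65, 8.93, 7.61 and 8.42, lowest in culture 3, and with 2.03 it was the only gene of this machinery with a range of 2 or more. That range fell under 2 after centring on the median, and its mean fell to 6.23, about the threshold, when its probe sets were averaged.

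Few adhesion and matrix genes were even between cultures. A range of 0.5 or less was found in 1 of 10 detected integrins and 3 of 27 matrix and protease genes, against 22.6% of all detected genes. Integrins were detected in 10 of 25 cases (40%, against 45% of protein-coding genes). *ITGA3*, a subunit of the laminin receptor, was at 17.31, 17.12, 17.39 and 16.85 and *ITGA5*, of the fibronectin receptor, at 13.37, 13.15, 13.43 and 13.24. *ITGB3*, of the vitronectin receptor, was at 12.34, 10.93, 11.71 and 9.45, and *ITGB8*, which activates TGF-beta, at 15.998, 15.81, 15.54 and 14.21. Both beta subunits were lowest in culture 4, whereas *ITGA6* was highest there, at 9.93, 9.39, 9.55 and 11.04. Of 32 matrix and protease genes, 27 were detected (84.4%, against 45% of protein-coding genes). *MMP1*, interstitial collagenase, was at 19.79, 19.87, 19.89 and 19.88, the upper end of the scale in every culture, where differences cannot be read. *MMP13*, collagenase 3, was at 15.38, 14.34, 16.25 and 10.37, a range of 5.88. *MMP10* was at 10.04, 7.83, 9.91 and 8.62, higher in cultures 1 and 3. *MMP3*, stromelysin 1, was at 10.38, 9.10, 9.57 and 5.99 and fell below the threshold in culture 4 alone. *CCN1*, a matricellular protein, was at 13.11, 10.68, 10.10 and 11.34, highest in culture 1.

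Several families had a smaller detected share than all genes (28.9%). The shares were 20% of keratins, 8.7% of HOX genes, 10.8% of PAX, GATA, FOXA and SOX factors and 20% of cancer-testis antigens. Of 20 type I and II keratins, *KRT7*, *KRT8*, *KRT18* and *KRT80* were detected, the last at 8.32, 8.35, 8.75 and 10.09. Among 23 measured HOX genes, *HOXB7* was detected at 10.37, 9.52, 9.86 and 10.07 and *HOXB9* at 6.83, 8.04, 9.97 and 8.29. Of 37 PAX, GATA, FOXA and SOX factors 4 were detected: *PAX8*, *SOX4*, *SOX9* and *SOX13*. *SOX4* was at 13.13, 12.60, 13.04 and 12.19, and *SOX9*, a chondrogenic and progenitor factor, at 6.31, 6.51, 7.26 and 9.45, with culture 4 above the others by 2.19. Cancer-testis antigens, normally confined to germ cells, were detected in 5 of 25 cases. They included *MAGEB2* at 12.32, 12.27, 12.47 and 12.80, *MAGEA3* at 10.65, 10.70, 10.93 and 11.67 and *MAGEA6* at 11.12, 11.21, 11.64 and 12.21. The last pair are near-identical copies, so their signals cannot be assigned to 1 gene with certainty.

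The 4 cultures were not equally alike. Over detected genes, cultures 1 and 2 had a Pearson correlation of 0.985 (across genes, which are not independent replicates), and cultures 3 and 4 the lowest, 0.951. The number of detected genes that differed by 1 or more was 448 between cultures 1 and 2 and 1898 between cultures 1 and 4. Culture 4 held the highest of the 4 values in 42.3% of detected genes, culture 3 in 26.5%, culture 1 in 22.2% and culture 2 in 8.97%. The lowest value was in culture 1 in 27.1%, in culture 2 in 26.1%, in culture 4 in 24.7% and in culture 3 in 22.0%. Over all detected genes the mean deviation from the gene's own mean was -0.04, -0.09, 0.03 and 0.10, so culture 4 was shifted slightly upward over these genes. The median over all probe sets was 3.84, 3.78, 3.76 and 3.74, lowest in culture 4. A labelling control added to each RNA sample (*dap*) was at 10.83, 10.42, 10.80 and 10.29, and the hybridization control *cre* at 12.73, 12.44, 12.54 and 12.30. Both were lowest in culture 4, as was the labelling control *thr* at 9.52, 8.99, 9.47 and 8.78, whereas the hybridization control *bioB*, at 8.02, 7.60, 7.73 and 7.65, was lowest in culture 2. Their part in the differences below was not tested.

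In 415 detected genes (4.27%) culture 4 lay above the other 3 by 1 or more, and in 248 (2.55%) below them by as much. Culture 3 stood above the others in 135 genes (1.39%) and below them in 62 (0.637%). For culture 1 the counts were 36 (0.370%) and 49 (0.504%), and for culture 2 they were 2 (0.0206%) and 9 (0.0925%). With a gap of 2 or more, culture 3 was apart upward in 32 genes and downward in 0, and culture 4 upward in 18 and downward in 38. The excess of high over low genes in culture 4 depended on the scaling: after quantile normalization again it was above the others in 297 genes and below them in 305.

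**Figure D3:**
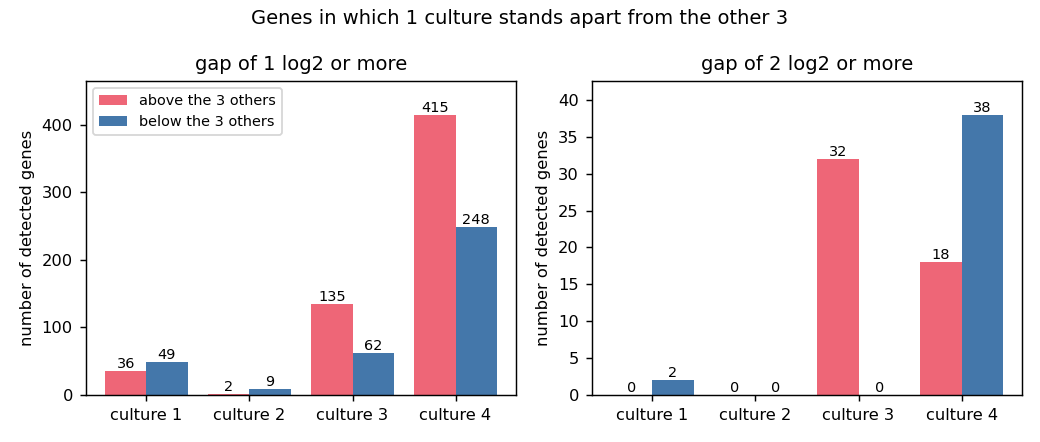
Number of detected genes (y axis) in which 1 control culture (x axis) lay above (red) or below (blue) the other 3 by at least 1 log2 unit (left) or at least 2 (right). Culture 4 has the most such genes at a gap of 1, 415 above and 248 below, and culture 2 the fewest, 2 and 9.

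The 20 genes with the largest range, between 4.46 and 6.62, included 9 of the interferon list and 3 of the NF-kB and cytokine list. Culture 3 was the highest in 13 of the 20 and culture 4 the lowest in 18. *TXNIP*, a thioredoxin-binding protein induced by glucose, led with 12.94, 12.34, 15.11 and 8.49. *SLC7A2*, a transporter of cationic amino acids, was at 11.88, 11.61, 11.43 and 6.67, and *ADM*, the vasodilator adrenomedullin, at 12.78, 10.50, 11.27 and 7.91. All 3 were lowest in culture 4, and for *SLC7A2* the other cultures lay close together.

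Culture 3 stood apart in interferon-stimulated genes. Of 37 measured members 32 were detected, all 32 were highest in culture 3 (26.5% of all detected genes were), and 29 had a range of 2 or more (4.85% of all). The median range was 3.33, against 0.79 over all detected genes. The mean deviation of the list was -0.33, -0.74, 2.25 and -1.19. In RNA from a whole culture, more cells that express a gene and more RNA per cell cannot be told apart. *OAS1* and *OAS2*, which make an oligoadenylate messenger upon double-stranded RNA, were at 12.39, 12.05, 16.59 and 10.95 and at 11.52, 10.96, 15.59 and 10.04. *MX1* and *MX2*, antiviral GTPases, were at 14.93, 13.62, 17.78 and 12.28 and at 11.67, 11.29, 14.80 and 9.93. In each of these, culture 3 was above every other culture by more than 2, and culture 4 was the lowest.

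*ISG15*, a ubiquitin-like modifier, was at 7.82, 7.07, 12.09 and 6.94, not far above the thresholds in 3 cultures and 4.27 higher in culture 3 than in the next. Its deconjugating protease *USP18* was at 8.21, 7.69, 11.73 and 7.12, and the near-identical copy *USP41P*, whose signal cannot be told apart from it, at 9.65, 8.02, 12.90 and 7.95. *IFIT1*, which binds viral RNA, was at 12.76, 11.46, 16.43 and 11.85, and *IFI6* at 14.82, 13.61, 17.997 and 13.08. The RNA sensor *IFIH1* was at 10.75, 10.16, 13.97 and 9.48. Among the least variable members were *IFITM3*, at 18.75, 18.80, 19.60 and 18.45, close to the top of the scale, and the factor *IRF1*, at 9.55, 9.37, 10.35 and 9.01. Without culture 3, 2 members had a range of 2 or more in place of 29, and without culture 4 it was 27.

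The interferon element shown above in *IFIT1*, *ISG15*, *IFI6* and *IFIH1* was found in the promoter windows of 17 of 26 detected members that have a RefSeq promoter here (65.4%). It was found in 8.29% of 27305 promoters, in 6.86% of those of detected genes and in 4 of 18 of the NF-kB and cytokine list. Lists with another order of cultures held it too, in 9 of 30 replication-dependent histones (30%) and 8 of 40 genes of the cytosolic ribosome (20%). A match is a description of the letters and does not show that a factor bound there.

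Genes of antigen presentation followed the same order of cultures. Of 22 measured, 13 were detected and 12 of these were highest in culture 3 (26.5% of all detected genes were). The mean deviation was 0.01, -0.23, 1.11 and -0.89. The peptide transporter *TAP1* was at 8.41, 8.21, 10.25 and 6.63. *HLA-B* was at 9.99, 9.70, 12.02 and 8.75 and *HLA-E* at 10.73, 10.93, 12.06 and 9.21, though probes of class I genes share sequence. *CD74*, the class II invariant chain, was at 8.06, 7.26, 7.88 and 7.28, without a culture apart. None of the 17 haematopoietic markers was detected in all cultures. Their mean, 4.32, 4.32, 4.28 and 4.36, lay at background and so cannot show whether they shared this order.

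Culture 4 stood apart in the opposite direction in NF-kB targets and cytokines. Of 27 measured 20 were detected, 19 of them were lowest in culture 4 (24.7% of all detected genes were), and 17 had a range of 2 or more. In 17 of the 20, culture 4 lay below the other 3 by 1 or more. The mean deviation was 1.03, -0.04, 0.91 and -1.90. *IL1B*, interleukin 1 beta, was at 17.55, 16.71, 16.998 and 12.96, and *IL6*, interleukin 6, at 15.98, 13.51, 15.31 and 10.93. *CXCL8*, the neutrophil chemokine, was at 16.73, 15.76, 16.41 and 13.17 and *CCL20* at 16.62, 15.31, 16.82 and 12.98. *PTGS2*, cyclooxygenase 2, was at 15.54, 14.20, 15.10 and 11.08. In each of these 5, cultures 1 and 3 were the highest pair, culture 2 lay below them and culture 4 was lower by at least 2.34 than any other.

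*BCL2A1*, an inhibitor of apoptosis, and *CFB*, complement factor B, are not on that list and were at 14.20, 12.96, 14.16 and 9.59 and at 18.65, 17.95, 18.98 and 14.42, with the same order. *RELB*, a subunit of NF-kB, was at 10.21, 9.25, 9.81 and 6.40 and missed the threshold in culture 4 alone. *ICAM1* was at 9.90, 9.31, 10.38 and 8.91 and *CXCL2* at 10.80, 9.58, 10.66 and 8.91, smaller differences with culture 4 again lowest. *LIF* differed from the rest, at 8.50, 7.70, 8.35 and 8.66, with culture 4 the highest. Without culture 4, 1 member had a range of 2 or more in place of 17.

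The NF-kB letters were found in the promoter windows of 10 of 18 detected members (55.6%), among them *IL6*, *CXCL2* and *CCL20* as shown above. They were found in 2.52% of all promoters, in 2.56% of those of detected genes and in 4 of 26 of the interferon list.

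Proliferation genes had yet another order, with culture 4 highest and culture 3 lowest. Of 44 measured S phase genes 35 were detected, all 35 highest in culture 4 (42.3% of all detected genes were) and 30 lowest in culture 3 (22.0% of all). The mean deviation was -0.26, 0.07, -1.03 and 1.22. *MCM4*, a subunit of the replicative helicase, was at 8.05, 8.87, 6.60 and 10.95. *CDC6*, which loads it, was at 10.25, 10.62, 8.53 and 12.57, and *DTL*, part of a ligase that degrades a licensing factor, at 7.75, 9.17, 6.59 and 10.86. *PCNA*, the sliding clamp, was at 13.38, 13.36, 12.26 and 14.21. Culture 4 exceeded culture 3 by 4.35 for *MCM4* and by 1.94 for *PCNA*. *MRPL36*, a mitochondrial ribosomal protein that some S phase lists carry, was nearly flat at 11.46, 11.21, 11.55 and 11.81.

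Of 55 genes of G2 and mitosis 49 were detected, 43 of them highest in culture 4 and 39 lowest in culture 3. Of all detected genes 42.3% were highest in culture 4 and 22.0% lowest in culture 3. The mean deviation was -0.33, 0.29, -0.76 and 0.80. *TPX2*, a spindle assembly factor, was at 12.13, 12.84, 11.36 and 13.93, *TACC3*, a spindle protein, at 9.24, 10.15, 8.42 and 11.14, and *HJURP*, which deposits centromeric histone, at 10.65, 11.72, 9.94 and 12.52. *G2E3* was nearly the same in all cultures, at 7.26, 7.17, 7.29 and 7.51, and *CKS1B*, a subunit of cyclin-dependent kinases, was at 8.15, 8.15, 7.53 and 8.09, low in culture 3 and alike in the other 3. Replication-dependent histones followed. Of 42 measured 33 were detected, 30 highest in culture 4 and 30 lowest in culture 3, with a mean deviation of -0.27, 0.19, -0.98 and 1.05. The linker histone *H1-5* was at 8.91, 9.995, 7.26 and 11.89, *H3C1* at 9.09, 9.53, 7.49 and 11.07 and *H3C2* at 6.99, 7.81, 6.43 and 9.79. *H2BC5*, at 12.63, 12.67, 12.32 and 12.55, varied little. Histone genes are near-identical copies, so their signals are partly shared.

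The number of S phase, G2 and mitosis, and histone genes with a range of 2 or more was 19, 12 and 18. It was 13, 2 and 6 without culture 3, and 8, 1 and 3 without culture 4. The E2F letters were found in the promoter windows of 12 of 30 detected S phase genes (40%), against 2.31% of all promoters and 3.95% of those of detected genes. TATAAA was found in 21 of 30 detected histone genes (70%), against 12% of all promoters and 5.69% of those of detected genes, and in 6 of 18 of the NF-kB and cytokine list (33.3%).

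**Figure D4:**
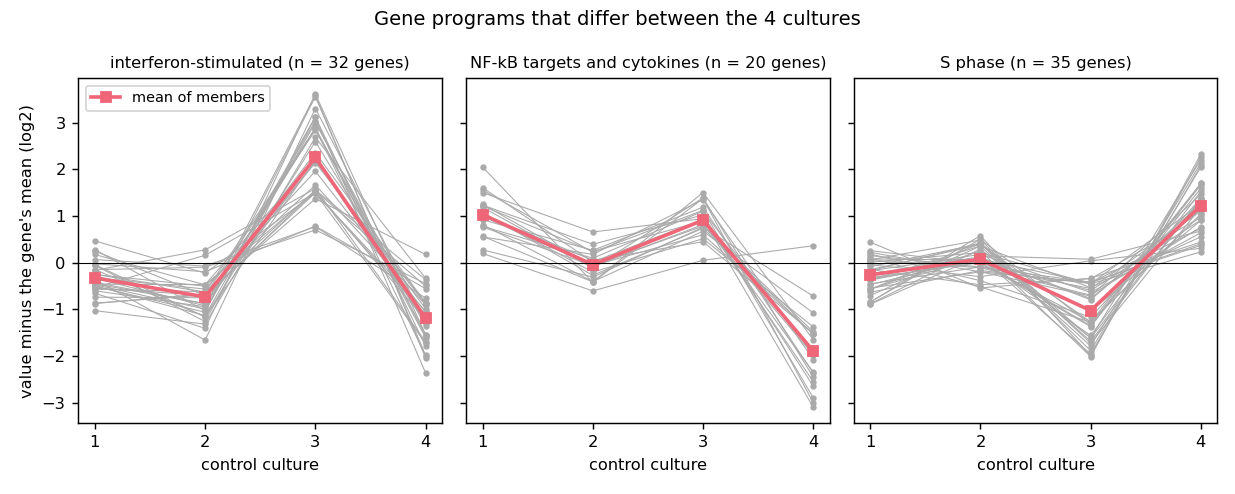
Deviation of each detected member (grey lines) from its own mean over the 4 control cultures (y axis, log2) by culture (x axis), with the mean of the members in red, for 32 interferon-stimulated, 20 NF-kB and cytokine and 35 S phase genes. The means reach 2.25 in culture 3, -1.90 in culture 4 and 1.22 in culture 4.

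Metabolic and stress programs had smaller median ranges than the interferon, NF-kB and proliferation lists, but not all were quiet. Genes of the integrated stress response, which ATF4 drives when amino acids are short, were detected in 18 of 25 cases (72%, against 45% of protein-coding genes). Of these 13 were highest in culture 3 (26.5% of all detected genes were). Their median range was 1.63, against 0.79 over all detected genes and 1.74 for G2 and mitosis. A range of 2 or more was found in 5 of the 18 (4.85% of all detected genes). *ASNS*, asparagine synthetase, was at 11.15, 11.46, 13.98 and 12.07, and *PHGDH*, the first enzyme of serine synthesis, at 8.38, 10.10, 11.90 and 10.07. *GDF15*, a stress cytokine of the same list, had another order, at 14.48, 13.56, 14.49 and 11.83, lowest in culture 4. *STC2*, also on this list, was at 14.57, 14.68, 14.17 and 14.66. Cholesterol synthesis genes were detected in 17 of 21 cases (81%) and parted the cultures in pairs, with a mean deviation of -0.47, -0.40, 0.43 and 0.44. *MSMO1* was at 13.16, 13.37, 15.61 and 15.32, *IDI1* at 10.70, 11.34, 12.85 and 13.05 and *DHCR7* at 10.49, 10.73, 12.33 and 12.49. The *SREBF1* transcript was at 6.40, 6.48, 6.36 and 6.56, only just above the threshold of each array, so no steadiness was read from it.

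Heat shock genes were detected in 14 of 15 cases (93.3%, against 45% of protein-coding genes). Of the 14, 13 were highest in culture 4 (42.3% of all detected genes were). Their mean deviation was -0.16, -0.24, -0.22 and 0.61. The chaperone *HSPH1* was at 13.52, 14.07, 13.55 and 15.20 and the co-chaperone *DNAJB1* at 13.01, 12.48, 12.50 and 14.03. *SERPINH1*, a collagen chaperone, was at 11.72, 12.08, 13.05 and 13.33, high in cultures 3 and 4. Genes of the unfolded protein response were detected in 17 of 20 cases (85%), and the factor *XBP1* was at 8.48, 8.40, 9.18 and 7.14, lowest in culture 4. In hypoxia and glycolysis, 24 of 32 genes were detected (75%, against 45% of protein-coding genes). A range of 0.5 or less was found in 9 of the 24 (22.6% of all detected genes). Culture 4 was the highest in 12 of the 24 (42.3% of all detected genes) and the lowest in 9 (24.7% of all). The list thus had no shared order. *SLC2A1*, a glucose transporter, was at 13.13, 13.44, 12.51 and 14.46 and *PGAM1*, a glycolytic mutase, at 14.49, 14.45, 14.16 and 15.88, both highest in culture 4. Of 22 targets of p53, which is mutated in this line, 15 were detected (68.2%). Of these 7 were highest in culture 4 (42.3% of all detected genes were) and 4 lowest there (24.7% of all). *TP53I3* was at 7.43, 7.66, 8.26 and 10.32 and *AEN*, a nuclease, at 7.30, 8.44, 7.43 and 9.87, both among the 7. Metallothioneins, which bind zinc and copper, were detected in 8 of 10 cases (80%) and 7 were highest in culture 3 (26.5% of all detected genes were). *MT2A* was at 18.19, 18.05, 18.69 and 17.75 and *MT1F* at 7.30, 7.24, 8.57 and 7.89, though probes of this family can share sequence.

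**Figure D5:**
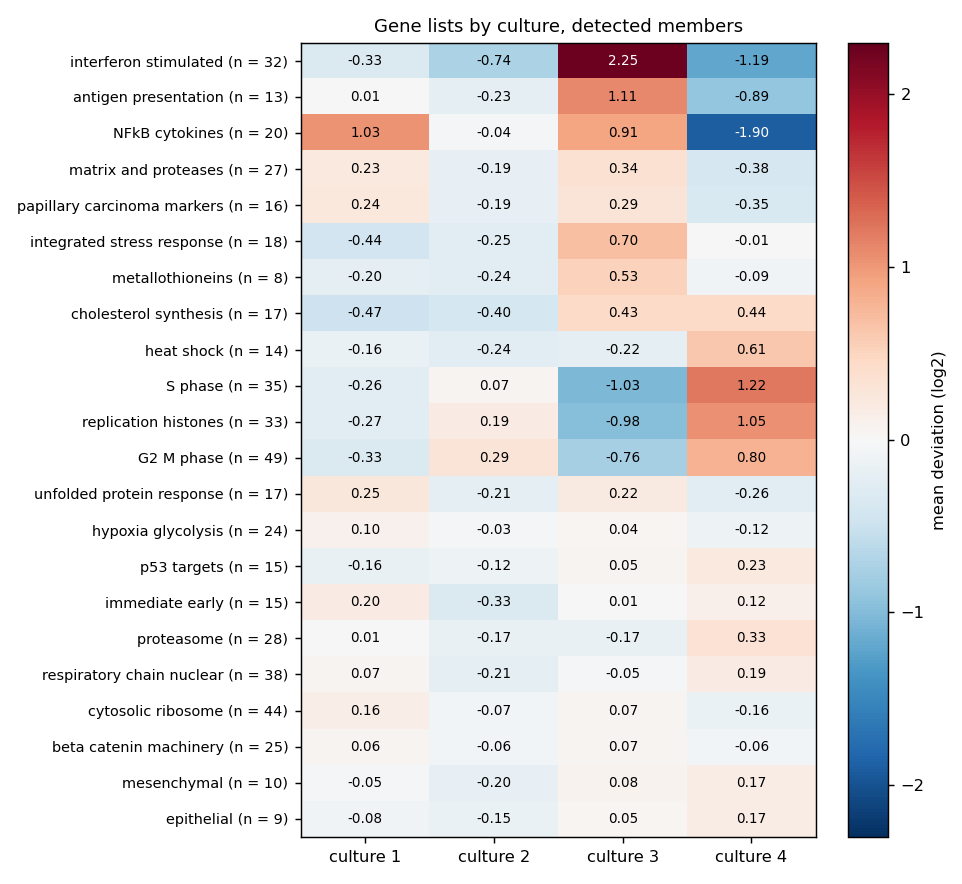
Mean deviation from the gene's own 4-culture mean (log2, colour and printed value) of the detected members of 22 gene lists (rows, with their number) in each control culture (columns). The interferon list is at 2.25 in culture 3, the NF-kB and cytokine list at -1.90 in culture 4 and the S phase list at 1.22 in culture 4, while the ribosome list stays between -0.16 and 0.16.

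Measured genes of the housekeeping lists were nearly all detected, and the ribosome had the smallest median range of these lists. Of 75 genes of the cytosolic ribosome 48 were measured, and 44 of these were detected (91.7%). Among the 44, 30 had a range of 0.5 or less and 0 a range of 2 or more. Their median range was 0.37. The mean level of the 48 measured genes was 16.96, 16.76, 16.85 and 16.72, above 16, where differences may be compressed. In 111 of 265 detected genes with a mean between 16 and 18 the range was 0.5 or less. The median range of those 265 genes was 0.56, wider than that of the list. It was 0.29 in detected genes with a mean of 18 or more. The steadiness of the ribosome list thus cannot be told apart from its level. All 28 measured proteasome genes and 38 of 39 measured nuclear genes of the respiratory chain were detected, with median ranges of 0.71 and 0.64. Of the 28 proteasome genes 20 were highest in culture 4 (42.3% of all detected genes were). A range of 0.5 or less was found in 6 of the 28 and 10 of the 38, near the 22.6% of all detected genes. The widest of them were modest: *RPL27* was at 16.42, 15.77, 16.13 and 15.49 and *RPS26* at 17.20, 16.85, 16.83 and 17.72, *PSMD14* at 13.40, 13.15, 12.53 and 13.77 and *COX8A* at 13.39, 13.32, 13.54 and 14.68. Narrow ones were *PSMA1*, at 10.52, 10.33, 10.43 and 10.56, and *COX6B1*, at 13.93, 13.84, 13.97 and 13.88. *MALAT1*, a nuclear long non-coding RNA, was at 19.07, 19.09, 19.07 and 18.86. *GAPDH*, often a reference gene, was at 19.79, 19.87, 19.89 and 19.91, the top of the scale, where its steadiness cannot be judged.

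The 10 genes with the smallest range among those with a mean under 16 stayed within 0.08. *ATG16L1*, of autophagosome formation, was at 11.79, 11.76, 11.78 and 11.75, *MTHFD1L*, a mitochondrial folate enzyme, at 10.09, 10.10, 10.05 and 10.05 and *STK39*, a kinase of ion transport, at 11.39, 11.44, 11.38 and 11.43. The nuclear receptor *NR2C1* was at 11.22, 11.15, 11.20 and 11.22 and the acetyltransferase *CREBBP* at 11.69, 11.66, 11.70 and 11.63. *VPS54*, of vesicle tethering, was at 8.48, 8.43, 8.45 and 8.40, and *EIF4H*, a translation factor, at 15.19, 15.18, 15.11 and 15.18. With *LIPH* and the pseudogenes *UBBP1* and *RNU7-179P*, these make up the 10. No order was read from ranges this small.

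A second probe set of the same gene gave a check on these values. In 170 genes 2 single-symbol probe sets were both detected, and the median correlation of their 4 deviations was 0.67, a description with 4 points per gene. It was 0.65 in 45 genes with a range under 0.5 and 0.84 in 6 genes with a range of 2 or more. In none of these 6 was it below 0, but the second probe set had a range of 2 or more in 1 alone, *SRGN*, at 3.10. In the other 5 its range was 0.22 to 1.54, the smallest in *PEBP1*, where the first had 2.69, and the lowest correlation was 0.21, in *SNORA11*. Of the 170 genes, 36 had a correlation below 0. For most genes 1 probe set is all there is, so a range of a single gene rests on 1 probe set.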

How the data were processed

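The authors processed the signals of Clariom D Human arrays with RMA (background correction, quantile normalization and a summary of the probes) in Affymetrix Expression Console. The log2 values they deposited, 1 for each probe set of an array, were taken without further scaling. Neither software version nor genome build is given in the sources used here. RMA makes arrays alike, which can hide a global shift. Only the 4 si*NS* arrays were used, 72 h after transfection. Of 135750 probe sets besides 2995 control rows, 36176 carry 1 gene symbol and 1119 several, and the latter were left out. By gene ID 25516 were matched to RefSeq (GRCh38.p14), and 0 symbols changed. Precision is limited by the number of arrays.

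For each gene the probe set of highest mean was kept. A gene was called detected above the 95th percentile of 612 negative controls in each of the 4 arrays and described by its range, SD and gaps between cultures with pandas 2.3.3 in Python 3.11.15. No test between groups was made. The calling of departures was tested on simulated data. The 43 gene lists, of which 994 of 1129 genes were measured, and the members were chosen with earlier results of these data known, and the promoter motifs after the values were seen. A rule gave 276 genes. Of these 187 are printed, *SOX13* and *TUG1* are named besides without values, and the rest enter only counts. The rule took detected members of identity, study and other cell type lists (undetected ones too for identity), the 3 most and 3 least variable detected members of other lists, and the 20 largest and 10 smallest ranges. *TNFSF15*, *RPS6KA5*, *MMP3*, *CXCL8*, *CCL20*, *RELB*, *PCNA*, *PEBP1*, *SRGN*, *SNORA11*, *PBK*, *FAM72A* and *OR9K2* were chosen after their values were seen. Y-linked genes and genes absent from the annotation used were not analysed here. Alternatives were other detection thresholds, 3 of 4 arrays, averaged probe sets, quantile normalization again, centring on the median, other range limits, the median over list members and leaving out each array. Normalization alternatives for the departures and the probe set pairs were added after seeing the data.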

Additional observations from a re-analysis of the deposited data

Results flagged for a closer look

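In 10 of 194 named genes and 1 of 34 lists, 1 culture lay so far from the other 3 that its gap, as a share of the group's range, passed Dixon's limit for 4 samples. Chance flags about 1 in 20 groups, and 5.85% of detected genes passed the limit, so this number of flags is no more than the background.

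Culture 4 was the one apart in *LPCAT2* (0.865 of the range, high), *MAPKAPK3* (0.843, high), *COX8A* (0.837, high), *IGFBP6* (0.833, low), *SLC7A2* (0.914, low) and *MALAT1* (0.915, low), and in the heat shock list (0.906, high). Culture 3 was apart in *PHLDA1* (0.844, high) and *CKS1B* (0.907, low). Culture 2 was apart in *TG* (0.872, high), which is not above the negative controls, and in *LIPH* (0.853, high), whose 4 values span only 0.05.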

How the results depend on the processing

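No paired analysis was possible because only the si*NS* group was used and no result comes from a test. The number of detected genes was 9728. It was 18860 with each array's median as the threshold, and stayed between 7573 and 10369 under the 99th percentile of the negative controls, 3 of 4 arrays, the mean of probe sets, quantile normalization and centring. Leaving out 1 culture gave 9773 to 10006. Genes with a range of 2 or more, 472, became 1205 at a limit of 1.5, 104 at a limit of 3, and 108 to 460 with 1 culture left out, lowest without culture 4 and 279 without culture 3. Genes with a range of 0.5 or less, 2198, became 4557 with the array's median as the threshold, 1390 at a limit of 0.4, and 3176 to 4635 with 1 culture left out, highest without culture 4, since fewer cultures give smaller ranges. Members of lists detected, 593, were 596 to 604 with 1 culture left out. Members with a range of 2 or more, 129, were 56 to 127 then, 56 without culture 4 and 57 without culture 3. Lists with 3 or more detected members that deviated by 0.5 or more in some culture were 11, and 10 to 12 under quantile normalization, centring and the median over members. The median correlation of probe set pairs was 0.73 and 0.71 after quantile normalization and centring. No deviation of 0.5 or more of these lists changed sign under these. Averaging probe sets moved the level of 14 named genes by more than 1 SD, as in *VIM* (11.54) and *KRT7* (12.40).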

Other observations

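Among the 472 genes with a range of 2 or more, the culture that held the extremes followed a few patterns. In 123 culture 4 was the highest and culture 3 the lowest, and in 115 the reverse held. In 96 culture 1 was the highest and culture 4 the lowest, and in 81 the reverse held. Culture 2 was the highest in 4 of these genes and the lowest in 27.

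Of 12 measured long non-coding RNAs linked to thyroid cancer, 3 were detected (25%, against 5.21% of long non-coding RNAs). They were *EPB41L4A-AS1*, *TUG1* and *MALAT1*, and all 3 were lowest in culture 4, as were 24.7% of all detected genes. The range of *MALAT1* was 0.23 near the top of the scale, where differences may be compressed. Immediate early genes, which respond within minutes to serum or stress, were detected in 15 of 23 cases (65.2%, against 45% of protein-coding genes). They had no shared order, with highest values in culture 1 for 6, in culture 3 for 5 and in culture 4 for 4. Of all detected genes 22.2%, 26.5% and 42.3% were highest in cultures 1, 3 and 4.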
